A study of Homo sapiens with 8 samples.

Results

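MNNG/HOS osteosarcoma cells given JQ1 and rapamycin together were compared with cells given only the solvent DMSO. The comparison used 4 of the 8 expression arrays in the series, namely the 2 arrays with both drugs and the 2 DMSO arrays, and these were set against each other by the replicate number in their titles. The remaining arrays, 2 with JQ1 alone and 2 with rapamycin alone, entered the shared estimate of the spread and served for comparison. MNNG/HOS is an established human line, a chemically transformed derivative of HOS osteosarcoma cells, and all 4 groups are this line with no label on genotype. The labelled doses were 7.5 mM of JQ1 and 12.5 nM of rapamycin, alike in the combination and the single treatments. No source used here allows a check of that millimolar unit, and none states the treatment time. The labels are silent on whether replicate arrays stem from separate cultures; if they do not, the p-values reflect technical spread alone.

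JQ1 is a small molecule that occupies the bromodomains of the BET family of proteins and displaces them from acetylated histones. BET proteins recruit the elongation kinase P-TEFb to promoters and enhancers, and their loss lowers many lineage and growth genes while a set of histone and P-TEFb regulator genes rises. Rapamycin binds the immunophilin FKBP1A, and the complex inhibits mTORC1, the kinase complex that couples nutrients and growth factors to translation, ribosome synthesis and lysosome function. The title of the series names a joint effect of the drugs in osteosarcoma as its subject.

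Array names need a caution before any result. The columns of a second deposited table, of non-normalized signals, were ranked and correlated with those of the value table, using 14640 probes that exceeded the lowest value everywhere. Each of its columns had a best match of at least 0.997, against at most 0.98 for any other array, and 6 of the 8 best matches carried a different name. Of the 4 arrays compared here, DMSO replicate 1 and combination replicate 2 had the same name in both tables, while the other table's header gave DMSO replicate 2 as rapamycin replicate 1 and combination replicate 1 as JQ1 replicate 2. Sample records carry the names of the value table, which are used throughout, and were the header right the comparison would be between other groups. Mean intensity ran from 455 to 482 over the 8 arrays, and between 55.7% and 58.6% of its 47304 probes carried the minimum value of 20, called the floor here. JQ1 accounted for 39.2% of the variance among the 8 arrays, rapamycin for 16.5% and the replicate number for 24.3%. On the log2 scale the within-group standard deviation (SD) was 0.39 for DMSO arrays and 0.43 for combination arrays.

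Marker levels were those of a mesenchymal line in part. The summed intensity of 12 mesenchymal and osteosarcoma markers, led by the intermediate filament vimentin (VIM), was 35109 to 39583 on the DMSO arrays and 35365 to 39698 on the combination arrays, although the bone collagen subunit COL1A2 and the surface protein THY1 were at the floor on all 4 arrays and fibronectin (FN1) at or near it. VIM alone gave 28108 to 33298, so the sums say little about the other markers. ENG (119 and 53.9 with DMSO) and RUNX2 (96.5 and 111) were at the floor on both combination arrays. COL5A1 and SPARC were higher on both combination arrays than on both DMSO arrays. The remaining markers overlapped between the groups or were at the floor. Epithelial markers summed to 331 to 400, with 5 of 9 at the floor throughout, and the sum includes the floor values of such markers. The epithelial adhesion molecule EPCAM was the brightest of the 9 and above the floor on all 4 arrays. Its intensity was 171.7 and 146.8 on DMSO replicates 1 and 2, and 204.0 and 224.9 on combination replicates 1 and 2. Haematopoietic markers summed to 1131 to 2005, almost all of it from CD68 and CD14, the latter lower with the combination (log2 change -2.50), and PTPRC, CD3E, SPI1 and TYROBP were at the floor. In total RNA from a whole culture, fewer cells of a kind and less RNA per cell cannot be told apart.

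The combination changed a large share of the measured genes. Of 12759 genes tested, 2416 (18.9%) passed at an adjusted p under 0.05 with the replicate number as a block (limma), 991 higher (7.77%) and 1425 lower (11.2%). Without the block 916 genes passed (7.18%), 374 higher (2.93%) and 542 lower (4.25%), and all 916 were among the 2416. The median log2 change of the genes that rose was 1.09 and of those that fell -1.18. Changes above 2-fold numbered 581 upward and 933 downward, and those above 8-fold 24 and 26. Every gene that passed moved the same way in both replicate pairs. The test on these same arrays favours such genes, so this is no separate evidence of agreement. The combination and DMSO arrays did not overlap for 952 of the 991 that rose and 1380 of the 1425 that fell, and over all tested genes they did not overlap for 2907 upward and 3327 downward. The balance of rises and falls depended on the scaling: with each array centred on its median the counts were 1329 higher and 1181 lower, and the median change of all genes moved from -0.0085 to 0.10. The count also rested on single arrays. It fell to 288 without combination replicate 1, 444 and 411 without DMSO replicate 1 or 2, 1137 without combination replicate 2 and 1332 without either rapamycin array, and no gene passed when only the 4 arrays were fitted (3103 at an unadjusted p under 0.05). Of the genes that passed, 73 higher and 115 lower did so in all 8 omissions of a single array.

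**Figure D1:**
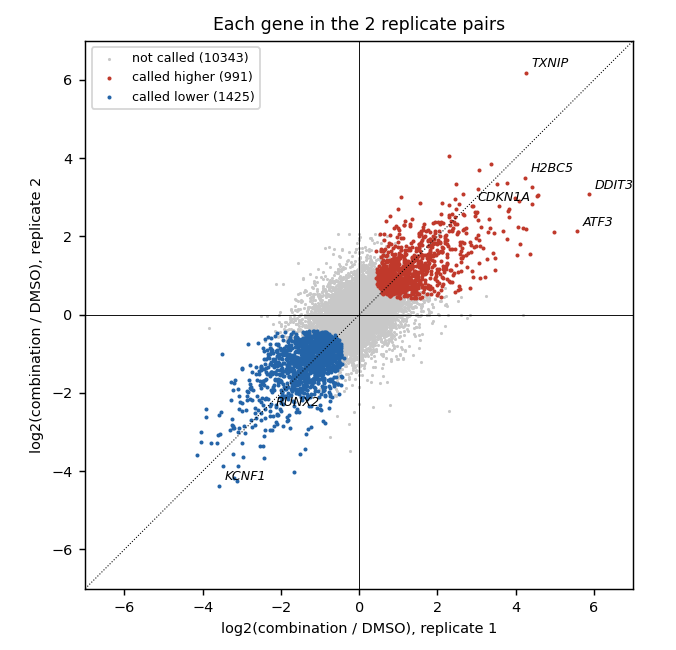
Log2 ratio of combination to DMSO for each of the 12759 genes in replicate 1 (x axis) and replicate 2 (y axis), with the dotted line marking equal ratios. Genes that passed the test (991 higher in red, 1425 lower in blue) lie in the quadrants where both pairs moved the same way, which the test favours. DDIT3, ATF3 and TXNIP lie far from the line.

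Agreement between the pairs was not uniform. For 255 genes (10.6% of those that passed) the 2 pair differences were more than 1 log2 unit apart. Among the 125 of these that rose, the rise was larger in replicate 1 for 96 and in replicate 2 for 29. Among the 130 that fell, the fall was larger in replicate 1 for 87 and in replicate 2 for 43. The values of single arrays are therefore given below for many genes. Other genes have only a log2 change, in which a split between the arrays is not visible.

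TXNIP, a binding partner of thioredoxin that limits glucose uptake, had the largest rise. Its intensity was 80.1 and 120.4 on DMSO replicates 1 and 2, and 1527 and 8740 on combination replicates 1 and 2. Both combination arrays lay far above both DMSO arrays, replicate 2 by the wider margin. The fold was 37.2 (log2 change 5.22 ± 0.61 SE, n = 2 arrays in each group here and below, adjusted p = 0.00336, or 0.0484 without the block). With single arrays left out it passed 5 of 8 times, not without DMSO replicate 2 or either combination array, and the log2 change ran from 4.34 to 6.09 over them. DDIT3, the pro-apoptotic stress factor CHOP, stood at 120.3 and 92.9 with DMSO and at 7055 and 782 with the combination. Here replicate 1 was the higher array, and the log2 change of 4.47 ± 0.71 (adjusted p = 0.00813) became 3.04 without it and 5.91 without replicate 2. ATF3, a stress-induced partner of CHOP, had 26.8 and 45.7 against 1273 and 201, a change of 3.85 ± 0.81 (adjusted p = 0.0194) that passed in 1 of the 8 omissions. ARC, a neuronal immediate early gene, had 49.0 and 55.9 against 1540.2 and 241 (3.54 ± 0.66, adjusted p = 0.0133, 3 of 8 omissions). For DDIT3, ATF3 and ARC alike the groups did not overlap, and combination replicate 1 was several times as bright as replicate 2.

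Of the other 8 of the 12 largest rises, the pair differences of H2BC5, H2BC21 and SERPINI1 lay within 1 log2 unit of each other, and those of LMO2, H4C14, FOS, MT1H and MT1G were further apart, replicate 1 having the larger rise in each. The cofactor LMO2, a bridging protein of transcription complexes in blood cell precursors, went from 29.7 and 25.6 to 629 and 246 (14.3-fold, log2 change 3.84 ± 0.28, adjusted p = 0.00132). The histone genes H2BC5 (269.8 and 392.2 to 5098 and 4429, 14.6-fold), H4C14 (109.7 and 144 to 2608 and 1209, 14.1-fold) and H2BC21 (72.6 and 191 to 995 and 1975, 11.9-fold) passed in all 8 omissions. SERPINI1, which encodes the protease inhibitor neuroserpin, went from 20 and 23.9 to 205 and 346, so its 12.2-fold rise is set partly by the floor; a second probe had a log2 change of 1.71. FOS, the AP-1 subunit, also had a DMSO array at the floor (20 and 60.1 against 468 and 496, log2 change 3.80 ± 0.38, adjusted p = 0.00236). The metallothioneins MT1H (121 and 282 to 2599 and 1997) and MT1G (1047 and 1649 to 17837 and 12455) completed the 12 genes, all with combination arrays above both DMSO arrays.

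**Figure D2:**
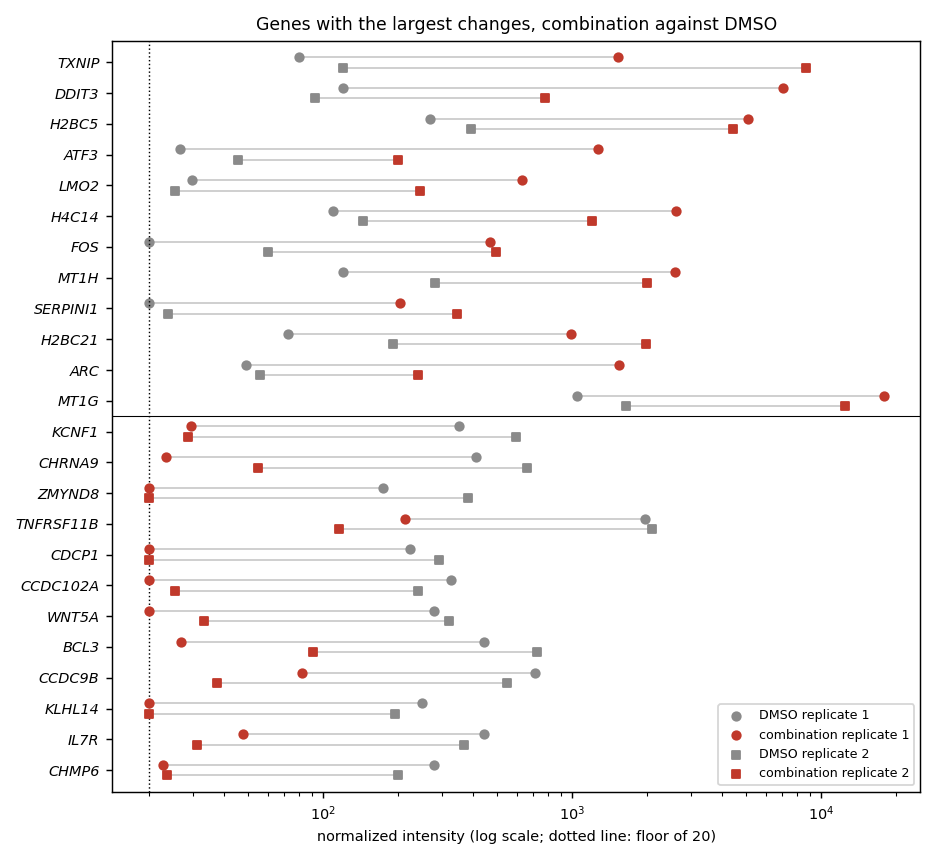
Normalized intensity (x axis, log scale) of the 12 genes with the largest rise (upper block) and the 12 with the largest fall (lower block), on DMSO (grey) and combination (red) arrays, circles for replicate 1 and squares for replicate 2. Each grey line joins the arrays of a pair; TXNIP, DDIT3, ATF3 and ARC have the widest gaps between combination arrays, and ZMYND8, CDCP1 and KLHL14 reach the floor of 20 on both.

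Promoters of the most changed metallothionein, arrestin-domain and stress genes are shown because these genes are among the largest rises and have well-known response elements. The 250 bases before a RefSeq transcription start (GRCh38.p14) were searched on both strands, with matches in capitals; where a gene has several starts the first in the RefSeq table is shown. The core of the metal response element (TGCACNC or TGCGCNC), bound by MTF1, occurs in 24.8% of the 35116 such windows (38.5% of tested genes with a window), and 4 or more copies in 0.37%. The carbohydrate response element, bound by ChREBP and MondoA, occurs in 0.786%, and the C/EBP-ATF element (TGATGNAA), bound by ATF4 and CHOP dimers, in 3.14%. The windows of MT1H (chr16:56669564-56669813, plus strand), MT1X (chr16:56682220-56682469, plus strand), TXNIP (chr1:145996580-145996829, minus strand) and ATF3 (chr1:212565157-212565406, plus strand) read as follows.
MT1H: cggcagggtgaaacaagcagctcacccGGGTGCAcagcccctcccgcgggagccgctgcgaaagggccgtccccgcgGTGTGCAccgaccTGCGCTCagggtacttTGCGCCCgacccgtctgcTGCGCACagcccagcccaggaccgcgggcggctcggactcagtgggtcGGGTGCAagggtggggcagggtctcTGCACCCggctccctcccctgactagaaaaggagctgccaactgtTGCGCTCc
MT1X: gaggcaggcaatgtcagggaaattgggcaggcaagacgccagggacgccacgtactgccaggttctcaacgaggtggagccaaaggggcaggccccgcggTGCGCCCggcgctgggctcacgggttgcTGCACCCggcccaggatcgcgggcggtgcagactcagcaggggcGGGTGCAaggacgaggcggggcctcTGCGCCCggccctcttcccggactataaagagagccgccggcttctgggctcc
TXNIP: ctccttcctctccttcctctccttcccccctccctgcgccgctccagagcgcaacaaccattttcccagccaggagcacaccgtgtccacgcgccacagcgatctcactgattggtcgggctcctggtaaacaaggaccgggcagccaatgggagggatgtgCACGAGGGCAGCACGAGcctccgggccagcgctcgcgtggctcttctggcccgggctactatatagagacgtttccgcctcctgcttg
ATF3: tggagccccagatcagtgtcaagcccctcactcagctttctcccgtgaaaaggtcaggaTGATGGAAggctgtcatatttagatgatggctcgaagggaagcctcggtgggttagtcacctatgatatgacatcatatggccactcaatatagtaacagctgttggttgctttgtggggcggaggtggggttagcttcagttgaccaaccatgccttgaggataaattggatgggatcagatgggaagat
MT1H held 8 matches of the metal element and MT1X 4. TXNIP held 1 match of the carbohydrate element, starting 88 bases before this start, and none before its other listed start, and ARRDC4, the other arrestin-domain gene that rose, held none. ATF3 held 1 match of the C/EBP-ATF element in the window of 1 of its 2 starts, and DDIT3 none in either of its 2. The C/EBP-ATF element was in 1 of 6 integrated stress genes that passed the test and have a window, and in 3 of 13 that did not pass. A match is a description of these letters and shows no binding.

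Among the falls, KCNF1, a modifying subunit of voltage-gated potassium channels, went from 353 and 595 on the DMSO arrays to 29.5 and 28.8 with the combination (log2 change -3.98 ± 0.28, adjusted p = 0.00132). The acetylcholine receptor subunit CHRNA9 went from 413 and 658 to 23.5 and 55.0 (-3.86 ± 0.32), and another of its probes changed by -1.48. ZMYND8, a chromatin reader that binds acetylated histones, was at 175 and 382 with DMSO and at the floor on both combination arrays, at least 12.9-fold lower (adjusted p = 0.00182). Of its other probes, 1 had a log2 change of -3.32 and 1 of -0.25. CDCP1, a transmembrane substrate of Src kinases, reached the floor on both arrays from 223 and 292 (at least 12.8-fold lower), as did KLHL14, a Kelch-domain protein, from 249.98 and 195 (at least 11.1-fold lower). TNFRSF11B, the decoy receptor osteoprotegerin that restrains osteoclast formation, went from 1973 and 2086 to 214 and 116 (-3.69 ± 0.59, adjusted p = 0.008, 4 of 8 omissions). In the same range were CCDC102A (-3.64), the WNT ligand WNT5A (278 and 322 to 20 and 33.2, -3.54), the NF-kB partner BCL3 (444 and 723 to 26.9 and 91.2, -3.51), CCDC9B (-3.48), the interleukin 7 receptor chain IL7R (444 and 369.7 to 47.7 and 31.2, -3.39) and CHMP6, a subunit of the membrane-remodelling ESCRT-III complex (279.8 and 200.3 to 22.8 and 23.6, -3.35). The groups did not overlap for any of these 12 genes, and all but TNFRSF11B passed in all 8 omissions.

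Genes that mark BET inhibition were higher with the combination. Of 18 listed, 17 were measured and 14 of these rose (11 without the block), against 7.77% of all genes tested, with a median log2 change of 2.95 against -0.0085 for all genes. Counts of every list below are to be read against the same background, 7.77% higher and 11.2% lower. Without the block the background was 2.93% and 4.25%. Besides TXNIP, SERPINI1 and the histones, HES6, a bHLH repressor, went from 139 and 233 to 2189 and 1821 (11.1-fold, log2 change 3.47 ± 0.25, adjusted p = 0.00132). KLF9, a glucocorticoid-responsive zinc finger factor, had a change of 0.85 and ZCCHC24 of 1.01. HEXIM1, a P-TEFb inhibitor that commonly serves as an indicator of BET inhibitor activity, did not pass: it stood at 24.7 and 25.8 with DMSO and 38.6 and 76.9 with the combination (1.11 ± 0.40, adjusted p = 0.103), near the floor though without overlap. The number that rose was 7 without combination replicate 1 or without either DMSO array, and 12 without combination replicate 2.

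The genes of the drug targets moved modestly. BRD2, itself a BET protein, rose from 2143 and 2467 to 6151 and 5861 (2.61-fold, log2 change 1.38 ± 0.18, adjusted p = 0.00478), while BRD3 had a change of 0.02 (adjusted p = 0.98). Of 14 measured BET and P-TEFb genes 4 rose (2 without the block) and 2 fell (1), and none of them passed without combination replicate 1 or without a DMSO array. Those that rose were BRD2, the P-TEFb subunit CCNT1 (0.97) and the super elongation complex members AFF4 (0.95) and ELL2 (0.73). LARP7, a scaffold of the inactive P-TEFb complex, fell by 1.24 and HEXIM2, a paralogue of HEXIM1, by 1.37, with 1 of its combination arrays at the floor. For rapamycin's targets, FKBP1A had a change of 0.33 (adjusted p = 0.27) and MTOR of 0.22 (adjusted p = 0.474). RPTOR, the substrate-binding subunit of mTORC1, was at the floor on both combination arrays against 33.5 and 84.5 with DMSO, at least 2.66-fold lower (adjusted p = 0.0461, 0.132 without the block), and passed in none of the 8 omissions. Of 36 measured mTOR complex and regulator genes, 5 rose (3 without the block, 1 without combination replicate 1) and 3 fell (0 in either, and 0 with arrays centred on their medians). The Rag GTPase RRAGC, which anchors mTORC1 at lysosomes, went from 230.4 and 217 to 546 and 680.3 (log2 change 1.45 ± 0.18, adjusted p = 0.00421). The folliculin partner FNIP1 (221 and 242 to 399.8 and 536), the leucine sensor relative SESN1 (1.41), RRAGD (0.77) and the translation repressor EIF4EBP2 (0.66) rose too. The RRAGD groups overlapped, however (164 and 467 against 261 and 855), and without the block its adjusted p was 0.651 (limma).

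Of 67 core and linker histone genes listed, 53 were tested, and 30 of these (56.6%) rose, 21 without the block, and none fell. The median log2 change was 1.12, and 49 of the 53 changes were positive. Outside the genes named above, H2BC8 went from 20 and 36.1 to 239 and 246 (3.17 ± 0.23, adjusted p = 0.00132), the linker histone H1-10 from 256 and 347 to 2601 and 1603 (2.78 ± 0.27) and H2AC18 from 559.6 and 913 to 4532 and 5645 (2.82 ± 0.30). H4C8 was at the floor on both DMSO arrays and rose at least 8.9-fold. Not every member moved: the variants H2AZ1 (-0.03), H2AZ2 (-0.06), H3-3A (0.09) and H3-3B (0.50) did not pass, and H2AX rose by 0.97. The number that rose was 8 to 9 without combination replicate 1 or either DMSO array and 28 without combination replicate 2. Many histone genes share near-identical coding sequence, H4C14 and H4C15 above all, so that their probes are not independent.

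Immediate early and AP-1 genes, which respond within minutes to growth factors and stress, rose in part. Of 15 AP-1 and related bZIP genes measured, 8 rose (7 without the block) and 2 fell (1). JUN went from 504 and 719 to 3977 and 2777 (5.52-fold, log2 change 2.47 ± 0.30, adjusted p = 0.00387) and FOSB from 20 and 40.5 to 256 and 179 (2.91 ± 0.37). JUND (1.55), MAFF (1.74), MAFG (0.88) and JUNB (0.81) rose by less, BATF3 fell by 1.34 and ATF2 by 1.04, and FOSL1 had a change of -0.17 (adjusted p = 0.646). Among 36 other immediate early and ERK feedback genes 14 rose (11 without the block) and 1 fell (1). The rises included ZFP36, an mRNA decay factor (103 and 64.9 to 530.5 and 385, log2 change 2.47 ± 0.17, adjusted p = 0.00132), the phosphatase DUSP1 (2.42), the zinc finger factors EGR1 (2.18), KLF2 (2.72) and KLF6 (1.80), the ERK-induced ETS factor ETV5 (1.93) and the matrix protein CCN2 (486 and 347 to 8080 and 1654, 3.15). SPRY1, a feedback inhibitor of receptor signalling, went the other way, from 508 and 1292 to 75.9 and 178 (-2.80 ± 0.24, adjusted p = 0.00161). Without combination replicate 1 the AP-1 list had 2 rises and the other list 4, and without DMSO replicate 1 they had 1 and 4.

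Stress responses of the cytosol and the endoplasmic reticulum (ER) were mixed. The integrated stress response includes a transcriptional programme run by ATF4 and CHOP. Of its 22 measured effectors 7 rose (6 without the block) and 1 fell (0). The list median of 0.91 became 0.36 without combination replicate 1. PPP1R15A, the phosphatase subunit that ends the response, went from 896 and 897.5 to 5052 and 3745 (2.28 ± 0.21, adjusted p = 0.00188), KLHL24, a ubiquitin ligase adaptor, from 47.2 and 56.2 to 388 and 516 (3.12 ± 0.30), and GADD45A from 464 and 459 to 4930 and 1358 (2.49 ± 0.50). The groups were apart for all of these. Several ATF4 targets split between the combination arrays. TRIB3, a pseudokinase that feeds back on ATF4, stood at 277 and 585 with DMSO and at 1368 and 105 with the combination (-0.08 ± 1.04, adjusted p = 0.979). CHAC1, a glutathione-degrading enzyme, and SESN2, a leucine sensor, were at the floor on both DMSO arrays and on combination replicate 2, and at 141 and 365 on combination replicate 1. Neither passed (adjusted p = 0.186 and 0.167). ATF4 itself had a change of 0.62 (adjusted p = 0.135), and STC2, a secreted glycoprotein, fell by 1.70.

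Of 31 ER chaperone and unfolded protein response genes, 9 rose (4 without the block, 2 without combination replicate 1) and none fell, and the median change was 0.49. DNAJB9, an ER co-chaperone, went from 203 and 246 to 1113 and 1220.0 (5.22-fold, log2 change 2.38 ± 0.16, adjusted p = 0.00132). CREBRF, a regulator of CREB3, rose at least 4.73-fold from the floor to 87.7 and 102 (adjusted p = 0.0014), and the AMP-transferring enzyme FICD (1.48), the degradation ligase SYVN1 (1.18) and the chaperones HSPA5 (1.07), CALR (0.80) and CANX (0.74) rose too. Of 25 amino acid synthesis and transport genes 3 rose (1 without the block) and 3 fell (0), against 7.77% and 11.2% of all genes, shares resting on 3 genes each. CTH, which makes cysteine, rose by 2.95 and asparagine synthetase (ASNS) by 1.62, each in 1 of 8 omissions, whereas the cystine importer SLC7A11 fell by 1.41. Of 24 cytosolic heat shock genes 4 rose (2) and 4 fell (0), against the same background. HSPA1A went from 698 and 363 to 5457 and 2252 (2.80 ± 0.49), and its near-identical copy HSPA1B, whose probe may read both, by 2.32, while the HSP90 co-chaperone CHORDC1 fell by 1.33. For amino acid genes, heat shock genes and the ER list, no more than 3 members in either direction passed without combination replicate 1 or a DMSO array.

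Metallothioneins, small cysteine-rich proteins that bind zinc and copper, were higher. Of 10 measured genes in the list, which includes the factor MTF1 and the exporter SLC30A1, 7 rose (4 without the block) and none fell. MT1X went from 3467 and 6348 to 28607 and 25947 (2.54 ± 0.34, adjusted p = 0.00483) and MT1M from 505 and 928 to 4496 and 3007 (2.43 ± 0.40), with MT1F at 1.29. The metal-sensing factor MTF1 (0.86) and the zinc exporter SLC30A1 (0.87) rose by less than 2-fold. MT2A, near the top of the intensity range on every array (34011 and 36928 against 31592 and 30957), had a change of -0.18 (adjusted p = 0.55), although its promoter window held 7 matches of the metal element. MT1 genes are close copies of each other, and their probes may share signal. The number that rose was 1 without combination replicate 1, 4 without replicate 2, and 0 and 2 without DMSO replicates 1 and 2. Of 9 arrestin-domain and carbohydrate-response genes only TXNIP and ARRDC4 rose (1 without the block, 0 without combination replicate 1). ARRDC4, a paralogue of TXNIP that also limits glucose uptake, went from the floor on both DMSO arrays to 42.0 and 162, at least 4.12-fold, and passed in none of the omissions (adjusted p = 0.0352, 0.139 without the block).

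A minority of the lipid and lysosome genes rose. Of 27 sterol and fatty acid synthesis genes 7 rose (2 without the block) and none fell, with a median of 0.47. INSIG1, the sterol-regulated retention protein of SREBP, went from 828 and 1505 to 11404 and 5750 (2.86 ± 0.47, adjusted p = 0.00898), the isoprenoid enzyme IDI1 from 316 and 399 to 1444 and 1471 (2.04 ± 0.17, adjusted p = 0.00161), and TM7SF2, a sterol reductase, by 2.26. Of 44 lysosome and autophagy genes 9 rose (6 without the block) and 2 fell (0). The autophagy kinase ULK1 went from 482 and 740.2 to 2299 and 2069 (1.87 ± 0.26), MAP1LC3B, which coats autophagosomes, from 445 and 550.1 to 2300.4 and 1757 (2.02 ± 0.30), and the lysosomal sialidase NEU1 from 455 and 373 to 1381 and 1025 (1.53 ± 0.18). The cholesterol exporter NPC1 rose by 1.18, while MITF fell by 1.10 and the hexosaminidase subunit HEXA by 0.83. Without combination replicate 1 the counts of rises were 2 and 1, and without a DMSO array 1 and 1.

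Some cell-cycle inhibitors rose and some cell-cycle genes fell. CDKN1A, the gene of the CDK inhibitor p21, went from 1849.6 and 1738 to 13677 and 11901 (7.12-fold, log2 change 2.83 ± 0.19, adjusted p = 0.00132) and passed in all 8 omissions; a second, dimmer probe had a change of 1.43. CDKN2D, an INK4 inhibitor of CDK4 and CDK6, went from 120.3 and 179.8 to 464 and 795 (2.04 ± 0.17). Of 29 inhibitors and p53 targets 12 rose (7 without the block, 2 without combination replicate 1) and 1 fell (0), among them the BH3-only protein PMAIP1 (1.74), the atypical cyclin CCNG2 (2.30, in none of the omissions) and SESN1. AEN, a p53-induced nuclease, fell by 1.19.

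In the RB pathway 5 of 15 genes fell (2 without the block) and none rose. The activator E2F2 went from 228 and 285 to 39.9 and 43.8 (-2.61 ± 0.27, adjusted p = 0.00244), E2F5 from 931 and 1049.8 to 354 and 282 (-1.65 ± 0.19), and the RB relative RBL1 fell by 1.62 with 1 combination array at the floor. Cyclin D1 (CCND1) fell by 0.82, from 9364 and 8313 to 5382 and 4648 (adjusted p = 0.0455, 0.187 without the block). Of 52 G1/S and DNA replication genes 18 (34.6%) fell and none rose, against 11.2% of all genes that fell, and the median change was -0.42. POLE2, a subunit of the leading-strand polymerase, went from 869.5 and 668.5 to 255 and 162 (-1.91 ± 0.22, adjusted p = 0.00312), UHRF1, which maintains DNA methylation, fell by 1.89, the histone chaperone subunit CHAF1A by 1.34 and the helicase subunits MCM3, MCM2 and MCM6 by 1.25, 1.19 and 1.06. PCNA (-0.02) and CCNE1 (0.14) did not pass. Without the block 3 of the 52 fell, and without combination replicate 1 none did.

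Of 61 G2/M and mitosis genes 14 fell and 1 rose, against 11.2% and 7.77% of all genes, with a median of -0.40. The kinases AURKA (5072 and 4203 to 1098 and 1493, -1.85 ± 0.27, adjusted p = 0.00663), BUB1B (-1.51), PLK4 (-1.48) and PLK1 (-1.06) fell, and CKS2, a small CDK-binding protein, rose by 0.75. Without the block 4 fell and none rose, and without combination replicate 1 none passed. With arrays centred on their medians 9 fell and 4 rose.

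MYC, a growth factor-responsive oncogene whose transcription depends on BET proteins in several blood cancers, was higher here, at 105.2 and 120.0 with DMSO against 976 and 235 with the combination (2.09 ± 0.46, adjusted p = 0.0231, 0.105 without the block). Combination replicate 1 was again the brighter array, and the change ran from 1.28 to 2.90 over the omissions. MYC passed in only 1 of the 8 omissions. The second MYC probe gave 2.42. In the MYC network the antagonists MXD3 (102 and 98.5 to 376 and 394, 1.94 ± 0.19), MXD1 (1.45) and MXD4 (1.01) rose, and MGA fell by 1.44 and MLX by 1.11. That made 4 of 11 up (2 without the block) and 2 down (1). The list median of 0.59 became 0.27 without combination replicate 1. A second, dimmer MGA probe, at the floor on both DMSO arrays, went the other way by 0.89. With the mean of its probes MGA changed by -0.28 (adjusted p = 0.361, limma). Of 37 MYC targets of the nucleolus and metabolism 8 fell (1 without the block, 1 without combination replicate 1) and 1 rose (0), the median being -0.34 with 33 of 37 negative. RRS1, a ribosome assembly factor, went from 2621 and 1451 to 655 and 315 (-2.10 ± 0.17, adjusted p = 0.0014) and passed in all 8 omissions, though without the block its adjusted p was 0.0652. PPAN (-1.58), the pseudouridine synthase DKC1 (-1.14) and GAR1 (-1.10) were other members that fell. The products that mTORC1 controls mainly by translation showed little change in RNA. None of 68 cytosolic ribosomal protein genes passed with or without the block (limma), with changes from -0.38 to 0.82, although 3 rose when arrays were centred on their medians and 1 without DMSO replicate 1. Of 44 translation factors 1 rose (0 without the block) and 1 fell (0).

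Growth factor receptors and their adaptors changed gene by gene. IRS1, the insulin and IGF receptor substrate, went from 798 and 1036 to 84.8 and 138 (-3.07 ± 0.41, adjusted p = 0.00493), while its relative IRS2 went from 40.9 and 48.9 to 407 and 267 (2.88 ± 0.29, adjusted p = 0.00231). FGFR3, an FGF receptor, went from 31.3 and 33.3 to 361 and 334 (3.43 ± 0.29), but its second probe had a change of -0.55. PDGFRB fell by 1.38, but its groups overlapped (43.5 and 146 against the floor and 46.9). Without the block its adjusted p was 0.395 (limma). The adaptor GRB10 fell by 1.31 and EGFR by 0.93. Of 17 such genes 2 rose (2 without the block) and 4 fell (2). Of 11 ephrin and Eph receptor genes 4 rose (2 without the block) and 2 fell (1), the ligand EFNB2 rising by 1.60 and the receptor EPHB6 falling by 1.67.

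Of 19 tested HOX genes, which set position along the body axis, 10 fell (5 without the block, 2 without combination replicate 1) and none rose, with a median of -1.05. HOXA2 went from 188 and 279 to 44.3 and 47.3 (-2.32 ± 0.22, adjusted p = 0.00203), HOXC8 from 454.5 and 315 to 106 and 53.1 (-2.33 ± 0.28), and HOXB4 changed by -2.43 ± 0.39. In the WNT pathway 8 of 29 fell (3 without the block, 2 without combination replicate 1) and 1 rose (0). Besides WNT5A, the ligand WNT7B went from 413 and 284 to 35.1 and 33.97 (-3.31 ± 0.28), the antagonist DKK1 from 1582 and 611 to 104 and 115 (-3.16 ± 0.46), the nuclear effector LEF1 fell by 1.76 and the feedback scaffold AXIN2 by 1.22, while the receptor FZD4 rose by 1.66 and passed in none of the omissions. Of 27 BMP and TGF-beta genes 7 fell (4 without the block, 2 without combination replicate 1) and 1 rose (0). The BMP antagonist GREM1 went from 189 and 155 to 23.8 and 32.4 (-2.62 ± 0.27), and SMAD6 (-1.54), TGFBR2 (-1.43) and the dominant negative HLH factor ID3 (-1.03) fell.

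RUNX2, the lineage factor of osteoblasts, was at 96.5 and 111 with DMSO and at the floor on both combination arrays, at least 5.17-fold lower (adjusted p = 0.0014), but another of its probes had a change of -0.29. Of 28 osteoblast and bone matrix genes 5 fell (3 without the block) and 2 rose (0), against 11.2% and 7.77% of all genes. In either direction 25% passed, against 18.9% of all genes, and the median change was -0.00060. CDH11, the osteoblast cadherin, went from 3026 and 3971 to 1066 and 1261 (-1.58 ± 0.24), TWIST1 fell by 0.85, and the homeobox gene MSX2 (1.09) and the matrix protein SPARC (0.76) rose. Without combination replicate 1 only 1 member passed. Of 20 transcription cofactor and bHLH genes 5 rose (4 without the block) and 4 fell (2). IRX4, a homeobox factor of heart and other tissues, went from 196 and 179.9 to 23.0 and 22.6 (-3.04 ± 0.21, adjusted p = 0.00132), and the Notch targets HEY1 and HEY2 moved apart, by -1.65 and 2.03.

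Cytokine and interferon genes went both ways. BCL3 and IL7R apart, IL6 went from 96.2 and 67.7 to 29.0 and the floor (-1.74 ± 0.20, adjusted p = 0.00326) and LIF from 54.4 and 75.3 to the floor and 27.9 (-1.44 ± 0.24), whereas IL11, another cytokine of the IL6 family, went from 776 and 481 to 3524 and 1883 (2.08 ± 0.27, adjusted p = 0.00427). NFKBIZ, a nuclear partner of NF-kB, rose by 1.98, with 663 and 622 against 4440.4 and 1444. Of 32 genes of this list 3 rose (2 without the block) and 6 fell (4), against 7.77% and 11.2% of all genes. Among 40 interferon-stimulated genes 6 rose (1) and 9 fell (2), against the same background. IRF7, an inducer of interferon genes, rose from 97.7 and 122 to 564 and 526 (2.32 ± 0.18, adjusted p = 0.0014), and HLA-B and HLA-C rose by 0.80 and 0.83, while the antiviral effectors IFIT3 and IFIT1 fell by 2.07 and 1.67. Without combination replicate 1 the cytokine list had 0 rises and 2 falls and the interferon list 1 and 0.

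Of 16 BCL2 family genes 2 rose (2 without the block) and 2 fell (1): the anti-apoptotic MCL1 (1.08) and the BH3-only PMAIP1 were higher, and the anti-apoptotic BCL2L1 (-1.68, second probe -0.29) and the BH3-only BID (-1.05) lower. Of 30 invasion genes 3 rose (2) and 3 fell (1), in all 20%, near the 18.9% of all genes. The collagenase MMP1 went from 33.6 and 43.5 to 156 and 178 (2.13 ± 0.23). The shares that moved were close to or below those of all genes, 7.77% up and 11.2% down, for the oxidative stress factor NRF2's targets (2 up and 2 down of 29; 0 and 1 without the block), aminoacyl tRNA synthetases (0 and 4 of 34; 0 and 2), purine and pyrimidine synthesis (1 and 3 of 23; 1 and 0), glycolysis and hypoxia (3 and 1 of 34; 0 and 0), the respiratory chain (1 and 1 of 39; 0 and 0) and the proteasome (0 and 2 of 29; 0 and 0). KEAP1, the adaptor that degrades NRF2, fell by 1.90. All list counts here are descriptions, since members overlap between lists and were not chosen independently of these data.

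**Figure D3:**
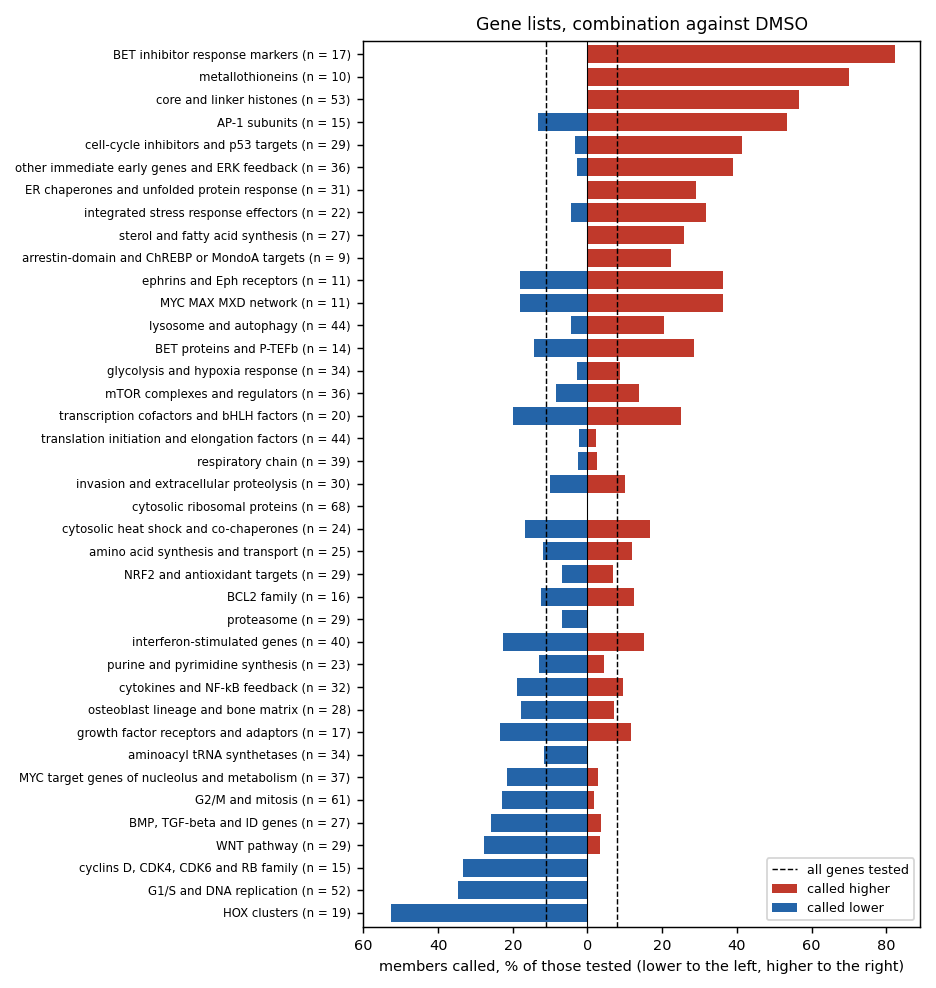
Percent of the tested members of each gene list that were higher (red, to the right) or lower (blue, to the left) with the combination against DMSO at an adjusted p under 0.05; n is the number tested, and dashed lines mark the share of all 12759 genes (7.77% higher, 11.2% lower). BET response markers, metallothioneins and histones extend farthest to the right, and HOX and DNA replication genes farthest to the left, while ribosomal proteins have no bar.

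The combination was next set against each single drug, which shows what the other drug's presence changed. Against JQ1 alone, 2 of 12759 genes passed (0.0157%), both higher, and none did without the block (1057 at an unadjusted p under 0.05 there, 1860 with the block, of which 858 were higher and 1002 lower). CREBRF was at the floor on both DMSO and both JQ1 arrays, at 116 and 99.2 with rapamycin and at 87.7 and 102 with the combination, at least 4.73-fold above JQ1 (adjusted p = 0.0354). FBXO32, the ubiquitin ligase atrogin-1, a FOXO target of muscle wasting, stood at 815 and 1683 with JQ1 and at 6053 and 8507 with the combination (6.13-fold, log2 difference 2.62 ± 0.21, adjusted p = 0.0354). The JQ1 arrays lay below both combination arrays, and the rapamycin arrays, at 4357 and 8145, overlapped them. No gene passed in this comparison when any single array was left out. DDIT3 was 12.3-fold higher than with JQ1 (adjusted p = 0.144), DNAJB9 3.29-fold (adjusted p = 0.065) and MT1H 5.67-fold (adjusted p = 0.144), and these did not pass.

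Against rapamycin alone 1445 genes (11.3%) passed, 545 higher (4.27%) and 900 lower (7.05%), and 334 without the block, 120 higher (0.941%) and 214 lower (1.68%). The largest differences upward were those of TENT5C, a poly(A) polymerase (27.7 and 80.4 with rapamycin, 374 and 889 with the combination, log2 difference 3.61 ± 0.29, adjusted p = 0.00405), EFNB2 (3.50), FGFR3 (3.42), H2BC5 (3.39) and H4C14 (3.32). Downward they were CHRNA9 (-4.27), ZMYND8 (at least 13.2-fold), TNFRSF11B (-3.46), RASL12, a Ras-like GTPase (-3.15), and IRX4 (-3.11). Of 53 histone genes 25 were higher than with rapamycin (8 without the block) and none lower. IL6, at 210.1 and 106 with rapamycin, and LIF, at 143 and 192, were lower with the combination (-2.63 and -2.81). Genes of stress responses were in part lower than with rapamycin: GDF15, a stress-induced cytokine, stood at 918 and 669.7 with rapamycin and at 162 and 107 with the combination (-2.58 ± 0.41, adjusted p = 0.0134), DNAJB9 at 1949 and 2223 against 1113 and 1220.0 (-0.84 ± 0.16, adjusted p = 0.0226), and SLC7A11 differed by -2.56. The count was 760 without either DMSO array, 734 without either JQ1 array, 124 without combination replicate 2 and 0 without combination replicate 1 or either rapamycin array.

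Each treatment's own change from the same DMSO arrays is given side by side for the genes above, the DMSO arrays being shared. LMO2 changed by 3.70 with JQ1, 0.70 with rapamycin and 3.84 with both. H2BC5 changed by 3.34, 0.48 and 3.87, and CDKN1A by 2.66, 1.04 and 2.83. DDIT3 changed by 0.85, 4.24 and 4.47, and DNAJB9 by 0.66, 3.22 and 2.38. TXNIP changed by 3.26, 2.997 and 5.22, MT1H by 1.12, 2.60 and 3.63 and IRS2 by 1.21, 1.62 and 2.88. POLE2 changed by -0.69, -0.59 and -1.91. List medians in the same order were 0.93, 0.11 and 1.12 for histones, 0.07, 1.18 and 0.91 for integrated stress effectors, 0.26, 0.56 and 0.49 for ER chaperones, -0.19, -0.31 and -0.42 for DNA replication, and -1.17, -0.11 and -1.05 for HOX genes.

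Whether the drugs together departed from the sum of their log2 changes was tested by the interaction. Only KLHL14 passed (0.00784% of genes, adjusted p = 0.0372), and none did without the block (448 at an unadjusted p under 0.05 there, 930 with it). KLHL14 was at the floor on all 6 arrays with any drug, so that its interaction of 3.47 ± 0.25 is set by the floor. The interaction of TXNIP was -1.04 ± 0.87 (adjusted p = 0.841), of DDIT3 -0.62 ± 1.01 (adjusted p = 0.926) and of CDKN1A -0.87 ± 0.26 (adjusted p = 0.641). With 2 arrays a group these intervals are wide, and a p that misses the threshold does not show that the changes add.

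**Figure D4:**
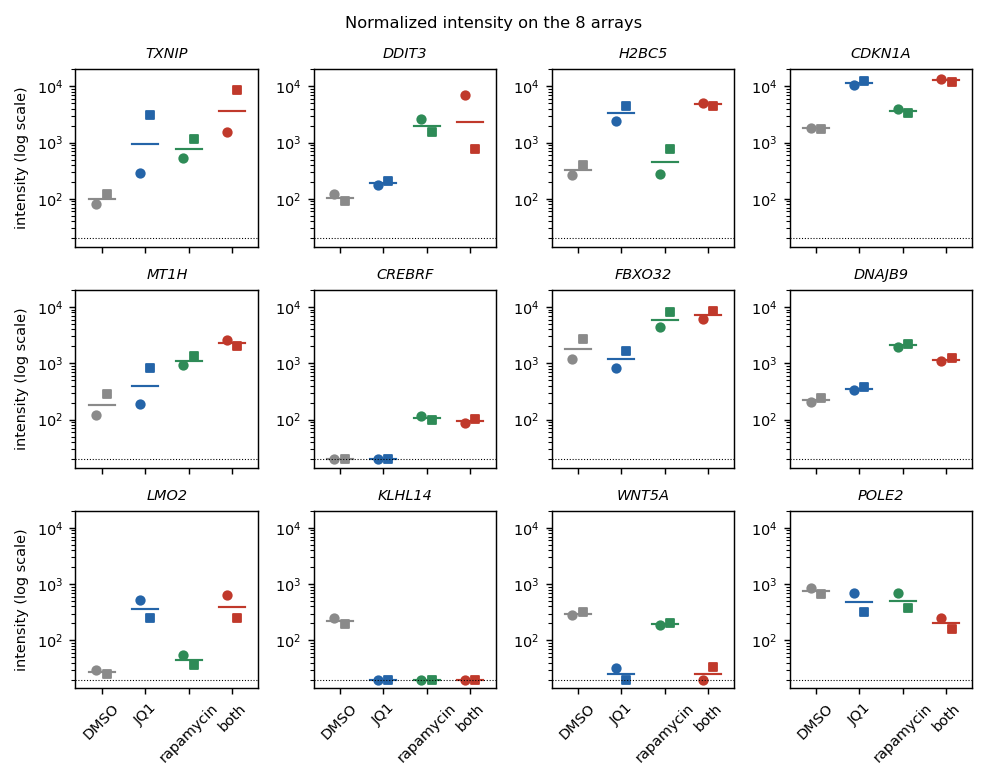
Normalized intensity (y axis, log scale, dotted line at the floor of 20) of 12 genes on all 8 arrays, by treatment, with circles for replicate 1, squares for replicate 2 and a bar at the geometric mean of the 2 arrays. CREBRF and FBXO32 are high with rapamycin and with both drugs, LMO2 and H2BC5 with JQ1 and with both, and KLHL14 is at the floor with any drug.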

How the data were processed

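Biotin-labelled cRNA made from total RNA was hybridised to Illumina expression arrays, to judge from the probe identifiers and the labels' protocols; the series' design text names another maker. The authors deposited a value table of normalized probe intensity with a floor of 20, and no source used here names its normalization method. Non-normalized intensity, also deposited by the authors, served only to check array names. Intensities were log2-transformed here. Of 47304 probes, 30102 had 1 symbol in the platform annotation, 8 several and 17194 were unnamed here; 30063 symbols were updated through RefSeq (GRCh38.p14, names only). Probes above 20 on at least 2 of the 8 arrays were kept (23860, of which 17016 had a symbol), and the brightest probe stood for each of 12759 genes, 3326 of which had several.

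One model with a mean for each group and the replicate number as a block was fitted to all 8 arrays with limma 3.58.1 in R 4.3.3 (3 residual and 3.918 prior degrees of freedom; 4 and 2.92 without the block), with Benjamini-Hochberg adjustment over all genes and a threshold of 0.05. Errors are moderated standard errors. The labels do not say what a replicate number shares; deviations from group means correlated at 0.363 to 0.471 between groups of the same number (0.363 for DMSO and the combination), so the fit without the block is printed beside the counts against DMSO and against each drug. Where a group was at the floor on both arrays, the fold is a lower bound and is written "at least". The script was tested on simulated data. Precision is limited by 2 arrays a group.

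The genes named are the 12 largest rises and falls without overlap of arrays, passing over provisional symbols, the 5 largest each way in other comparisons, up to 4 members of each gene list with the smallest p, quoted list members and the drug target genes. Members, lists and rules were chosen with earlier results of these data known. Summaries and figures used Python 3.11.15, pandas 2.3.3 and matplotlib 3.10.9.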

Additional observations from a re-analysis of the deposited data

Results flagged for a closer look

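KLHL14 had a tested difference between the effects of rapamycin with and without JQ1: the interaction was 3.4663 on the log2 scale, with all 6 drug-treated arrays at the floor. In 4 further genes described here the rapamycin effect had one sign in both replicates without JQ1 and the other sign in both with it, whatever its size. They are not all the genes that meet this rule. Among the named genes MARS1, SLC38A1, IRX4 and TENT5C meet it too. How many genes would meet such a sign rule by chance was not estimated. The difference was not tested as such by this criterion, and none of these genes passed the interaction test across all genes. For CHRNA9 the effect was 0.4155 without JQ1 and -0.8673 with it, a difference of 1.283. For IL7R it was -1.237 and 0.5285, a difference of -1.766, with the JQ1 and combination arrays between 23.9 and 47.7 and so close to the floor of 20. In replicate 2 the IL7R effect with JQ1 was only 0.0596. MTOR differed by 0.2061, but in replicate 2 its effect without JQ1 was 4.698e-05, in practice no movement. FOSL1 differed by 0.5868, with small effects in replicate 2 of 0.1034 without JQ1 and -0.09679 with it. Neither MTOR nor FOSL1 passed in any comparison with DMSO. With 2 arrays a group, no test for outlying arrays within a group was possible.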

How the results depend on the processing

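For the combination against DMSO the count of 2416 genes stayed between 2101 and 3222 with array weights, median centring, quantile scaling, an offset of 20, the stricter filter of 4 arrays, probe means or a trended robust variance. It was 916 without the replicate block, 329 with no filter on dim probes and 0 with only the 4 arrays compared, and 288 to 1646 without single arrays. With the block dropped as well, a setting chosen after seeing the data, single omissions left 0 to 555 (0 and 318 without combination replicate 1 or 2, 47 and 61 without DMSO replicate 1 or 2, 372 without a rapamycin array, 555 without a JQ1 array). Against rapamycin 1445 became 334 without the block, 58 with no filter, 0 with only 4 arrays, 0 to 760 without single arrays, and 0 to 73 with both changes (46 without a JQ1 array, 73 without a DMSO array). Against JQ1 the count of 2 was 0 without the block and with only 4 arrays, 4 with the stricter filter or median centring, 5 with probe means, 6 with the offset, 11 with no filter and 249 with a trended robust variance; without single arrays it was 0. The interaction count of 1 was 0 without the block, with the stricter filter or without any array, and 3 with no filter or a trended robust variance; it has no fit on fewer groups. The causes were not tested, beyond fewer arrays, more genes tested or another error model in these settings. Of the 157 named genes, none of the 152 that passed changed direction; 2 that did not pass did, BRD3 (0.024, or -0.31 to 0.36 over the omissions, with -0.31 without DMSO replicate 1 and -0.20 without combination replicate 1) and FOSL1 (-0.17, or -0.45 to 0.12, with 0.12 without DMSO replicate 2). Among the 157, 52 lost their side of the threshold without the replicate block, 112 with no filter and 152 with only 4 arrays, and 40 of the 152 that passed did so without any single array. Many list counts also differed without the block or without combination replicate 1. How far they rest on either was not tested, since those fits also differ in their arrays or error model. Signal near the floor of 20 limits the folds of dim genes.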
